A study of Mus musculus with 7 samples.

Results

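Arid5b and the other genes of the ARID (AT-rich interaction domain) family were followed in the transcriptomes of single mouse germinal vesicle (GV) oocytes with and without SETD1B, a histone H3 lysine methyltransferase. Arid5b was selected on its measured RPM: its level was lower in oocytes without SETD1B in these same libraries. Its difference is given as a description with no test. The other members were taken by family name: Arid1a, Arid1b, Arid2, Arid3a, Arid3b, Arid3c, Arid4a, Arid4b and Arid5a. A row of the transcript table was a member when the table named it for the gene on the strand of the transcript, and of several rows for a gene the one with the highest mean was kept. This found 6 of the 10 genes (Arid1a, Arid1b, Arid2, Arid3a, Arid5a and Arid5b) among 33437 transcripts. The other 4 had rows that matched their annotated span and strand, but the table named those rows for an overlapping gene on the opposite strand. They are given as coordinate matches, a naming added after the table was seen.

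All oocytes came from 21-day-old females, C57BL6 by their labels and C57BL/6OlaHsd by the methods, whose labels give floxed Setd1b alleles on both chromosomes. The Setd1b cKO group (n = 4 oocytes) was Gdf9-Cre positive, and the Setd1b WT group (n = 3 oocytes) was Gdf9-Cre negative by its labels, although the methods of the study also let females with a single floxed allele and Gdf9-Cre count as WT. Gdf9-Cre is expressed in oocytes from early folliculogenesis onwards, so the deletion was directed to the germ cell. Each library held 1 oocyte, and which oocytes shared a mother was not given, so p-values measure the spread between these oocytes.

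The libraries held 8582493 to 12972366 mapped reads, at which 3 reads amounted to 0.231 to 0.350 RPM (reads per 1000000 mapped reads). Reads outside the counted transcripts made up 9.57 to 9.90% in WT and 13.2 to 16.4% in cKO. Oocytes cKO 4 and WT 3 stood apart from the rest of their groups and deviated in the same direction (correlation of their deviations from the group means 0.608 across transcripts), so results are also given without them where that matters. Oocyte markers summed to 20252 to 23563 RPM in cKO and 23812 to 27464 RPM in WT for the 11 of 12 with a row (two-sided exact permutation p = 0.0286, the smallest that 35 splits can give). Of these 11, 9 had a log2 fold change below 0 (median -0.35, beside 0.12 over all tested transcripts). Past the limma threshold 1 was lower, beside 1.95% of all tested transcripts. It was the meiotic kinase gene Mos, at 191 ± 19.0 RPM in cKO and 486 ± 73.3 RPM in WT (log2 fold change -1.34, adjusted p = 0.00581). In 2 of the 11, Mos and Zp3, every cKO oocyte was below every WT oocyte, which held for 7.14% of all tested transcripts. The granulosa list was higher in cKO, with summed levels of 304 to 365 RPM against 236 to 248 RPM for 16 of 18 markers (two-sided exact permutation p = 0.0286). Bmpr1b carried most of that level and difference, at 224 ± 20.3 RPM in cKO and 173 ± 9.40 RPM in WT. The defining markers Foxl2 and Amhr2 reached at most 0.165 and 0.659 RPM in any library, Fshr reached at most 5.15 RPM, and Cyp19a1 lay between 17.1 and 30.6 RPM. Of the 8 granulosa markers tested, 7 had a log2 fold change above 0 (median 0.41, beside 0.12 over all tested transcripts). Past the limma threshold 0 were higher and 0 were lower, beside 3.76% and 1.95% of all tested transcripts. The largest log2 fold changes of the 8 were those of Inha (8.07 ± 5.63 RPM in cKO, 1.71 ± 2.29 RPM in WT, limma adjusted p = 0.225) and Wnt4 (13.6 ± 7.67 and 4.97 ± 2.49 RPM, adjusted p = 0.159). Every cKO oocyte was above every WT oocyte in 2 of the 8, Bmpr1b and Nr5a2 (Nr5a2 at 38.8 ± 8.26 RPM in cKO and 27.8 ± 0.428 RPM in WT), which held for 13.2% of all tested transcripts. Theca and stroma markers (7 of 9 with a row) summed to 1.84 RPM in cKO and 1.71 RPM in WT, and blood and endothelium markers (6 of 8) to 21.6 and 20.4 RPM, with Hbb-bs at 0 in all 7 libraries. In the last list Hba-a1 and the macrophage marker Lyz2 were also at 0 in all 7 libraries, and the leukocyte marker Ptprc had no row. Another macrophage marker of that list, Cd68, was however higher in cKO, at 8.91 ± 3.44 RPM against 2.72 ± 0.885 RPM (log2 fold change 1.36, limma adjusted p = 0.0435), while the endothelial marker Pecam1 was at 11.9 ± 5.15 RPM against 17.3 ± 3.76 RPM (adjusted p = 0.369). The part of these differences in the results below was not tested. The transcript of Setd1b itself, a coordinate match, averaged 10.1 ± 6.04 RPM in cKO and 14.2 ± 4.89 RPM in WT (limma log2 fold change -0.61, SE 0.49, adjusted p = 0.533), and its log2 fold change was -0.15 without cKO 4 and -0.91 without WT 3. That value counts the whole transcript, including the part outside the floxed segment, and does not check the labels.

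ARID proteins bind DNA through the domain that names them and act mostly as parts of chromatin complexes. ARID1A and ARID1B are alternative subunits of the BAF form of the SWI/SNF nucleosome remodeller, and ARID2 is the matching subunit of its PBAF form. ARID4A and ARID4B bind the retinoblastoma protein and belong to the SIN3-HDAC deacetylase complex, the ARID3 proteins are sequence-specific transcription factors, ARID5A binds and stabilises inflammatory mRNAs, and ARID5B recruits the histone demethylase PHF2 and is known for its roles in fat, liver and cartilage.

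The Arid5b transcript (ENSMUSG00000019947) spans chr10:68092427-68278726 on the minus strand of GRCm38. Its first base is the RefSeq start of the gene, at a distance of 0 bases, and so is that of its closest relative Arid5a (chr1:36307733-36324348, plus strand). The 250 bases before each start are shown because both genes carry the same kind of domain and the first base of each transcript is its RefSeq start. Isoforms were merged, and the GENCODE annotation lists 3 starts for Arid5b and 7 for Arid5a. Which start the reads came from is not known. The sequences are those of RefSeq, build GRCm38.p6, written 5′ to 3′ on the strand of the gene, and capitals mark CG dinucleotides and, in the first, the match to the TATA box letters.
Arid5b, chr10:68278727-68278976, minus strand: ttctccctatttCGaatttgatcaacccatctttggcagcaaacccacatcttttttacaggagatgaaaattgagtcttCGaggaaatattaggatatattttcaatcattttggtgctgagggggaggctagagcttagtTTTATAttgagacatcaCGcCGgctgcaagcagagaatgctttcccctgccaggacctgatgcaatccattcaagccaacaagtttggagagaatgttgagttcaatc
Arid5a, chr1:36307483-36307732, plus strand: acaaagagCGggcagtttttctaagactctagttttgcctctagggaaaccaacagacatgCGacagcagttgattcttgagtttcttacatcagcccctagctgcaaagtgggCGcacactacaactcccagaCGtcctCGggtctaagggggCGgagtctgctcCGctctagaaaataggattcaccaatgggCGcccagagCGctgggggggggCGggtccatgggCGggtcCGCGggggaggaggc
The Arid5b window held 4 CG dinucleotides and 42.0% G and C. The Arid5a window held 13 CG dinucleotides and 58.0% G and C. Across 32841 such windows of 27018 genes the median was 6 CG, with quartiles of 2 and 16, and 37.8% of windows had fewer than Arid5b. The tables held windows for 7 of the 10 members, 9 windows in all, with 4 to 37 CG, and Arid5b had the fewest of them. Only the Arid5b and Arid5a windows end at the first base of the transcript. For the others the RefSeq start lay 89 (Arid3b) to 2207 bases (Arid1a) from that base, and 1128 bases for the Arid1b window with 37 CG. These windows therefore need not be the promoters used in the oocyte. The TATA box was searched as TATAAA on both strands, and the Arid5b window held 1 match, read as TTTATA on the gene's strand with its first base 108 bases before the start, while 12.4% of all windows held a match. This is a match of letters only, and whether it serves as a TATA box was not tested. Neither the CCAAT box (CCAAT, in 33.9% of windows) nor the GC box (GGGCGG, in 32.7%) was found in the Arid5b window on either strand, whereas the Arid5a window held 1 CCAAT and 3 GC box matches. Among tested genes with a window, 4 or fewer CG, a limit set after the Arid5b value was seen, were found for 40.8% of the 147 genes lower in cKO, 34.0% of the 238 higher in cKO and 16.3% of the 7328 past neither threshold. The 147 include Arid5b itself. Many called transcripts had no window, since 355 were lower and 683 higher in all. The window nearest to each transcript start was taken with no limit on distance.

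In WT oocytes Arid5b was read at 252, 331 and 301 RPM, and in cKO oocytes at 26.3, 48.2, 65.7 and 20.7 RPM. The highest cKO oocyte was therefore well below the lowest WT oocyte, and no library lay between the groups. The group means were 295 ± 39.7 RPM in WT (SD, n = 3) and 40.2 ± 20.7 RPM in cKO (SD, n = 4), so the cKO mean was 13.6% of the WT mean, a 7.33-fold difference. On the log2(RPM + 1) scale the cKO minus WT difference was -2.98 (SE 0.36). It was the 8th lowest of 18179 tested transcripts, counting transcripts that reached 1 RPM in 3 or more libraries. Without cKO 4 the difference was -2.72 and without WT 3 it was -2.96. The cKO oocytes spread more among themselves than the WT oocytes relative to their mean. Among the cKO oocytes the shallowest library, cKO 4 (8582493 reads), had the lowest value, while cKO 3 and cKO 2, the libraries with the highest values, were the deepest (11485032 and 12142297 reads). RPM are already scaled to depth, and the part of depth in this order was not tested.

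**Figure D1:**
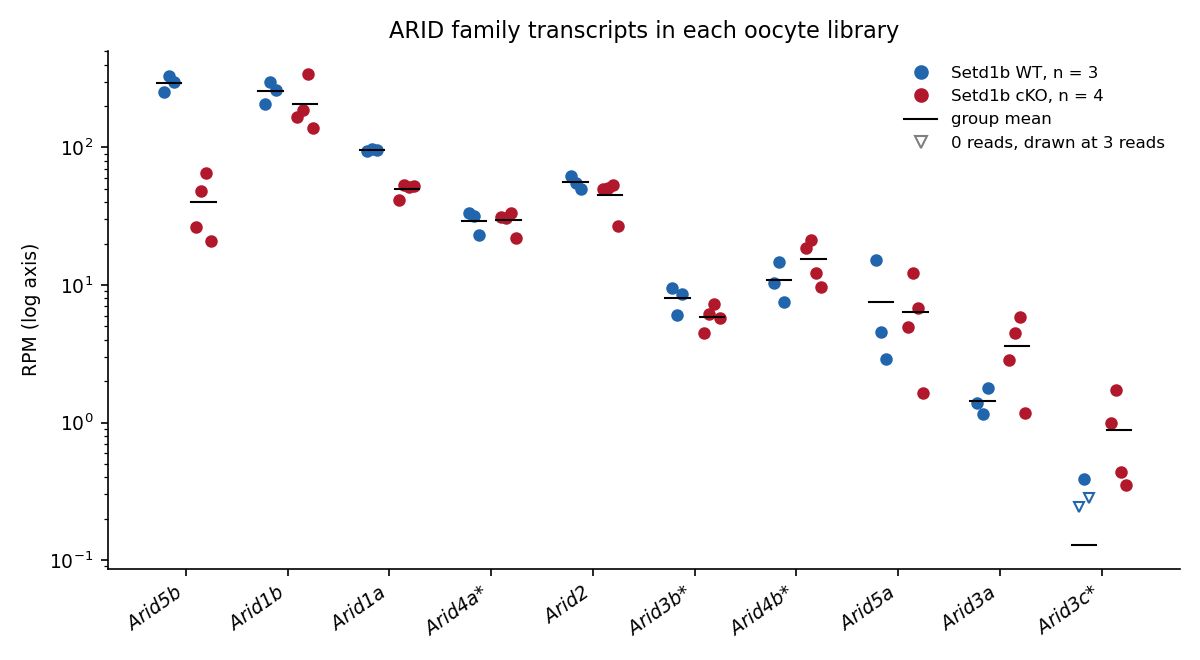
RPM of the 10 ARID genes on a log axis, with a point for each oocyte (blue for 3 Setd1b WT, red for 4 Setd1b cKO), a bar at each group mean, open triangles for libraries at 0 reads drawn at the level of 3 reads, and an asterisk for coordinate matches; genes are ordered by WT level per kb. Arid5b and Arid1a are the genes whose groups do not overlap, with Arid5b at 252 to 331 RPM in WT and 20.7 to 65.7 RPM in cKO.

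Arid5b was selected for its lower level in this contrast, so the counts here are over the other members. Of the 5 others that the table names, 0 were lower and 0 were higher past the threshold of a limma adjusted p under 0.05 together with more than a 2-fold change. By the adjusted p alone 1 (Arid1a) was lower and 0 were higher, beside 399 lower and 719 higher of all 18179 tested transcripts. By voom on the recovered reads the counts past the threshold were also 0 and 0. Over all tested transcripts 1.95% were lower and 3.76% were higher (355 and 683 of 18179), and the split reversed after centring of the libraries on the median transcript (531 lower, 458 higher) or quantile normalisation (442 lower, 428 higher). The median log2 fold change of the 5 was -0.34, with 4 below 0, beside a median of 0.12 over all tested transcripts. After centring these medians were -0.50 and -0.03. With the coordinate matches 8 genes beside Arid5b could be tested (Arid3c was under the filter), 0 passed the threshold, and their median was -0.25, with 5 below 0. In 1 of these 8, Arid1a, every cKO oocyte was below every WT oocyte, which held for 7.14% of all tested transcripts, and in 0 every cKO oocyte was above every WT oocyte, which held for 13.2%.

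Arid1a (ENSMUSG00000007880, chr4:133679008-133754562, minus strand), the BAF subunit that is often mutated in tumours, was read at 93.6, 98.1 and 96.5 RPM in WT. In cKO it was read at 41.2, 53.4, 51.7 and 52.1 RPM. The WT oocytes differed from each other by only a few RPM, and all 4 cKO oocytes lay well below them, with cKO 1 the lowest. The mean was 96.1 ± 2.28 RPM in WT and 49.6 ± 5.67 RPM in cKO, or 51.6% of WT. The log2 fold change was -0.95 (SE 0.20, 95% interval -1.38 to -0.51, limma adjusted p = 0.0194), which passed the adjusted p but not the 2-fold limit. Without cKO 1 it was -0.86 (adjusted p = 0.0573), without cKO 3 the adjusted p was 0.0530, and it was 0.0761 without WT 1 and 0.0924 without WT 2, where fewer libraries entered the fit. When libraries were centred on the median transcript the log2 fold change was -1.10 (adjusted p = 0.00991), and Arid1a then also passed the 2-fold limit. A second, upstream Arid1a row (chr4:133755852-133757453) was listed at 0 in all 7 libraries.

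Arid1b (chr17:4993946-5347656, plus strand), the alternative to Arid1a in the same position of the BAF complex, was read at 209, 299 and 261 RPM in WT and at 166, 186, 340 and 139 RPM in cKO. The groups overlapped because cKO 3 was the highest of all 7 oocytes, whereas the other 3 cKO oocytes were below the lowest WT oocyte. The log2 fold change was -0.37 (SE 0.30, 95% interval -1.04 to 0.29, limma adjusted p = 0.535), and it ran from -0.64 without cKO 3 to -0.21 without cKO 4 (-0.25 without WT 2), in no case past the threshold. In cKO 3 Arid5b was also at its highest cKO level. The ratio of Arid1b to Arid1a, per kb of exon, was 2.03 to 2.78 in WT and 2.44 to 6.0 in cKO, so the groups overlapped in this ratio.

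Arid2 (chr15:96286624-96404992, plus strand), the PBAF subunit, was read at 62.3, 55.2 and 50.2 RPM in WT and at 50.3, 50.5, 53.7 and 26.7 RPM in cKO. Oocyte cKO 4 lay far below the other 6, which spanned 50.2 to 62.3 RPM. The log2 fold change was -0.34 (SE 0.27, 95% interval -0.94 to 0.25, limma adjusted p = 0.520), and it was -0.11 without cKO 4.

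Of the ARID4 genes, which encode SIN3-HDAC subunits, Arid4a (chr12:71015767-71099269, plus strand) was read at 33.3, 31.6 and 23.1 RPM in WT and at 31.3, 30.8, 33.6 and 22.1 RPM in cKO. These ranges nearly coincided, and the log2 fold change was 0.01 (SE 0.24, 95% interval -0.52 to 0.53, limma adjusted p = 0.993), with the opposite sign after centring (-0.15) and after quantile normalisation (-0.04). Arid4b (chr13:14063232-14199362, plus strand) was read at 10.4, 14.8 and 7.48 RPM in WT and at 18.7, 21.2, 12.2 and 9.67 RPM in cKO. The groups overlapped, and the log2 fold change was 0.45 (SE 0.33, 95% interval -0.28 to 1.18, limma adjusted p = 0.483), with 0.64 without cKO 4 and 0.23 without WT 3. Both are coordinate matches. The start of Arid4b lies within the Ggps1 transcript on the opposite strand (chr13:14050736-14063401), and strand use in the counting is not given in the sources used here, so reads of that overlap cannot be assigned. The same limit holds for the other coordinate matches given by name here, since the table names each of those rows for a gene on the opposite strand (among the members, Gm17231 for Arid3b, Il11ra1 for Arid3c and 3110056K07Rik for Arid4a).

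The remaining members were read at low levels. Arid5a, an RNA-binding protein gene, was at 15.2, 4.55 and 2.90 RPM in WT and at 4.95, 12.3, 6.79 and 1.63 RPM in cKO. Neither group clustered, and the log2 fold change of -0.15 had an SE of 0.58 and a 95% interval of -1.44 to 1.13 (limma adjusted p = 0.918), so neither a 2-fold decrease nor a 2-fold increase lies outside it. Its sign turned to 0.27 without cKO 4 and 0.45 without WT 1. Arid3a (chr10:79926831-79955018, plus strand), a transcription factor gene first described in B cells, was at 1.38, 1.16 and 1.78 RPM in WT and at 2.87, 4.45, 5.83 and 1.17 RPM in cKO. Its highest WT oocyte was below 3 of the 4 cKO oocytes, and the log2 fold change of 0.79 (SE 0.39) had a limma adjusted p of 0.271. Without cKO 4 it was 1.11 (adjusted p = 0.0561), and with library quality weights 1.05 (adjusted p = 0.0522), over 2-fold but not past the adjusted p. Arid3b (chr9:57790352-57836868, minus strand) ranged from 6.09 to 9.56 RPM in WT and from 4.45 to 7.23 RPM in cKO (log2 fold change -0.39, SE 0.27, limma adjusted p = 0.461). Arid3c (chr4:41723833-41731331, minus strand), the least studied of the ARID3 genes, had 0, 5 and 0 reads in WT and 10, 21, 5 and 3 reads in cKO and was not tested.

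**Figure D2:**
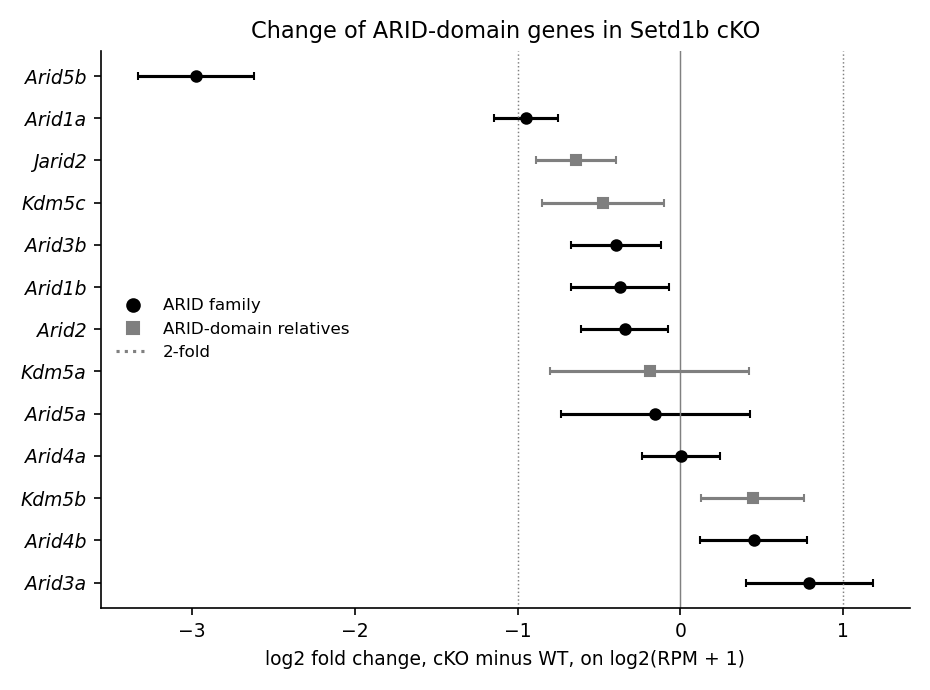
Log2 fold change (cKO minus WT, on log2(RPM + 1)) of the 9 tested ARID genes (black circles) and 4 tested ARID-domain relatives (grey squares), with bars of 1 SE and dotted lines at 2-fold. Arid5b lies at -2.98, Arid1a at -0.95, and the other genes lie between -0.64 and 0.79.

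The same domain is carried by the histone H3K4 demethylases of the KDM5 group and by JARID2, a cofactor of the Polycomb complex PRC2. Of these 5 relatives Kdm5d, which lies on the Y chromosome, had no row. Of the other 4, 0 passed the limma threshold in either direction, beside 1.95% lower and 3.76% higher over all tested transcripts. Jarid2 (chr13:44729795-44921643) was read at 115, 114 and 103 RPM in WT and at 51.8, 80.5, 98.0 and 60.4 RPM in cKO. All cKO oocytes were below all WT oocytes, cKO 3 only narrowly, which held for 1 of the 4 relatives and 7.14% of all tested transcripts, and the log2 fold change was -0.64 (SE 0.25, 95% interval -1.19 to -0.10, limma adjusted p = 0.156). The KDM5 genes overlapped between groups: Kdm5a, a coordinate match, at 5.41 ± 4.83 RPM in cKO and 4.57 ± 1.27 RPM in WT, Kdm5b at 7.63 ± 2.74 and 5.08 ± 0.533 RPM, and Kdm5c at 11.7 ± 5.65 and 15.9 ± 5.10 RPM (limma adjusted p = 0.903, 0.474 and 0.521).

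To compare levels between genes, RPM were divided by the kb of merged annotated exons, so a gene with many isoforms is understated on this scale. In WT oocytes Arid5b had the highest mean level of the 10 genes at 29.3 ± 3.95 RPM per kb, followed by Arid1b at 20.3 ± 3.61 and Arid1a at 8.37 ± 0.199 RPM per kb. Arid4a (5.22) and Arid2 (5.21 RPM per kb) came next, and the other 5 genes had means of 0.073 to 1.01 RPM per kb. The ranges of neighbours in this order did not touch from Arid5b down to Arid4a, nor between Arid2 and Arid3b, but Arid4a and Arid2 could not be ordered, nor could Arid3b, Arid4b, Arid5a, Arid3a and Arid3c among neighbours. In cKO oocytes Arid1b came first at 16.5 ± 7.17 RPM per kb, and Arid4a (5.25), Arid1a (4.32), Arid2 (4.22) and Arid5b (4.0 ± 2.06 RPM per kb) followed with overlapping ranges.

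Arid5b made up 38.7, 42.0 and 42.8% of the summed level of the 10 genes per kb in WT oocytes and 7.99, 12.2, 12.4 and 7.95% in cKO oocytes. These shares did not overlap and were narrower than the levels themselves, with means of 41.2 ± 2.15% and 10.1 ± 2.52%. The ratio of Arid5b to Arid1b was 1.52, 1.39 and 1.44 in WT and 0.199, 0.324, 0.242 and 0.186 in cKO, so the gene with the higher level per kb was Arid5b in every WT oocyte and Arid1b in every cKO oocyte. The summed level of the family was 71.0 ± 6.86 RPM per kb in WT and 37.6 ± 11.3 RPM per kb in cKO. Without Arid5b it was 41.7 ± 3.25 and 33.6 ± 9.32 RPM per kb, and the groups overlapped. All of these sums include Arid5b, which was selected for its decrease, or Arid1a, and are given without a test.

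**Figure D3:**
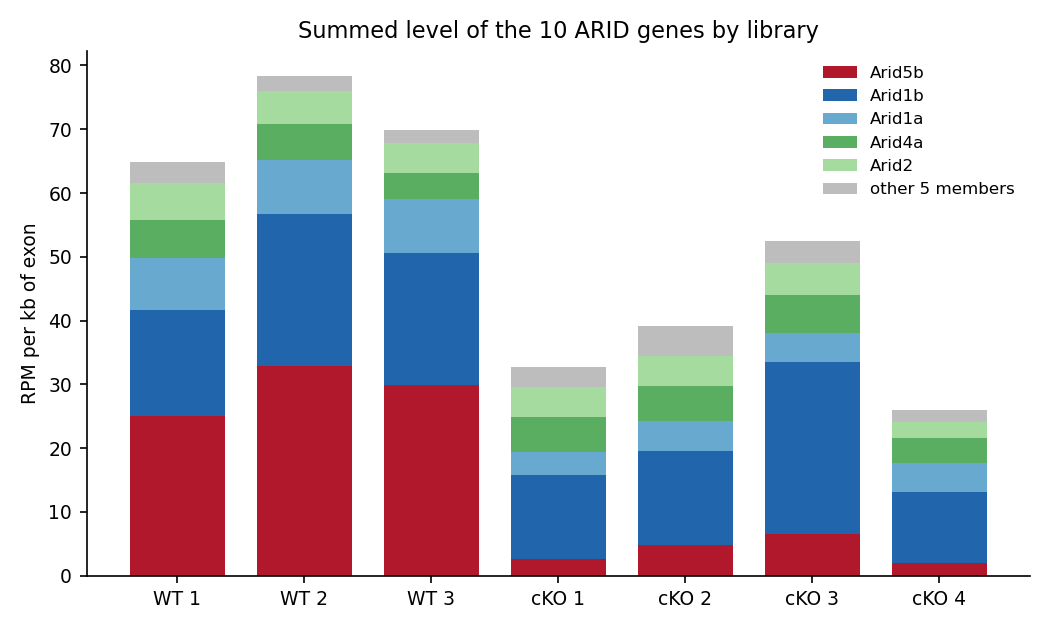
Summed level of the 10 ARID genes in each oocyte in RPM per kb of exon, stacked by gene, for 3 Setd1b WT and 4 Setd1b cKO libraries. The red Arid5b segment is 38.7 to 42.8% of the WT bars and 7.95 to 12.4% of the cKO bars.

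The proteins that work with the ARID subunits were followed through 4 lists with 45 genes, of which 43 had a row and 39 were tested. Of these 39, 1 was higher in cKO (Hdac1) and 0 were lower by limma and by voom on recovered reads, beside 3.76% higher and 1.95% lower over all tested transcripts by limma. A log2 fold change below 0 was found for 15 of the 39. Their median was 0.07, beside 0.12 over all tested transcripts. Of 21 BAF partners 15 were tested, and 0 passed the threshold. By RPM, not divided by exon length, the 2 with the highest level were Smarca2, a catalytic subunit, at 159 ± 53.6 RPM in cKO and 194 ± 10.9 RPM in WT (limma adjusted p = 0.527), and the core subunit Smarcb1, at 101 ± 48.4 and 99.6 ± 61.4 RPM (adjusted p = 0.912). Per kb of exon Actl6a (21.5 RPM per kb in cKO, 25.4 in WT) and Dpf3 (21.3 and 14.5) had higher means than both. Smarcb1 was at 29.5 RPM in WT 3 and at 42.3 RPM in cKO 4, the oocytes that stood apart, and at 81.1 to 145 RPM in the other 5.

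Named after their values were seen, Bcl7c and Dpf3 were the BAF partners whose groups did not overlap, 1 below and 1 above WT of 15 tested, beside 7.14% and 13.2% of all tested transcripts. Bcl7c, a BAF accessory subunit, was at 19.0, 19.3 and 24.8 RPM in WT and at 8.81, 7.91, 11.5 and 13.9 RPM in cKO (log2 fold change -0.95, SE 0.26, limma adjusted p = 0.0583). Without cKO 4 its log2 fold change was -1.09 (adjusted p = 0.0265) and it passed the threshold, as it did after centring (-1.11, adjusted p = 0.0370). Dpf3, which reads histone modifications for the BAF complex, was at 65.2, 51.1 and 68 RPM in WT and at 92.2, 79.1, 86.2 and 102 RPM in cKO (log2 fold change 0.55, SE 0.21, adjusted p = 0.146).

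The PBAF list held Pbrm1, Brd7 and Phf10, and 0 of the 3 passed the threshold. Brd7, a bromodomain protein, was at 50.0 ± 10.1 RPM in cKO and 40.4 ± 10.1 RPM in WT (limma adjusted p = 0.546), and the polybromo subunit Pbrm1 was at 16.5 ± 6.07 and 15.2 ± 4.15 RPM (adjusted p = 0.929).

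Of the 18 SIN3-HDAC partners, all tested, 1 was higher in cKO (3.76% over all tested transcripts) and 0 were lower (1.95%), and the median of their log2 fold changes was 0.02. The gene was Hdac1 (chr4:129516104-129542713), a deacetylase catalytic subunit, which was read at 22.7, 22.6 and 17.6 RPM in WT and at 60.6, 60.9, 60.9 and 55.8 RPM in cKO. The cKO oocytes lay close together, far above every WT oocyte. Means were 59.5 ± 2.48 and 20.9 ± 2.91 RPM (log2 fold change 1.47, SE 0.20, 95% interval 1.03 to 1.92, limma adjusted p = 0.00417). Its paralogue Hdac2, the other deacetylase of the complex, was at 35.8 ± 3.16 RPM in cKO and 35.1 ± 4.30 RPM in WT (log2 fold change 0.03, SE 0.21, 95% interval -0.43 to 0.48, adjusted p = 0.960). The members with the highest level were Sap18, at 1183 ± 395 RPM in cKO and 854 ± 286 RPM in WT, and the histone chaperone Rbbp7, at 626 ± 104 and 568 ± 107 RPM (adjusted p = 0.434 and 0.782). The scaffold Sin3a was at 144 ± 25.7 and 160 ± 23.9 RPM (adjusted p = 0.749).

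**Figure D4:**
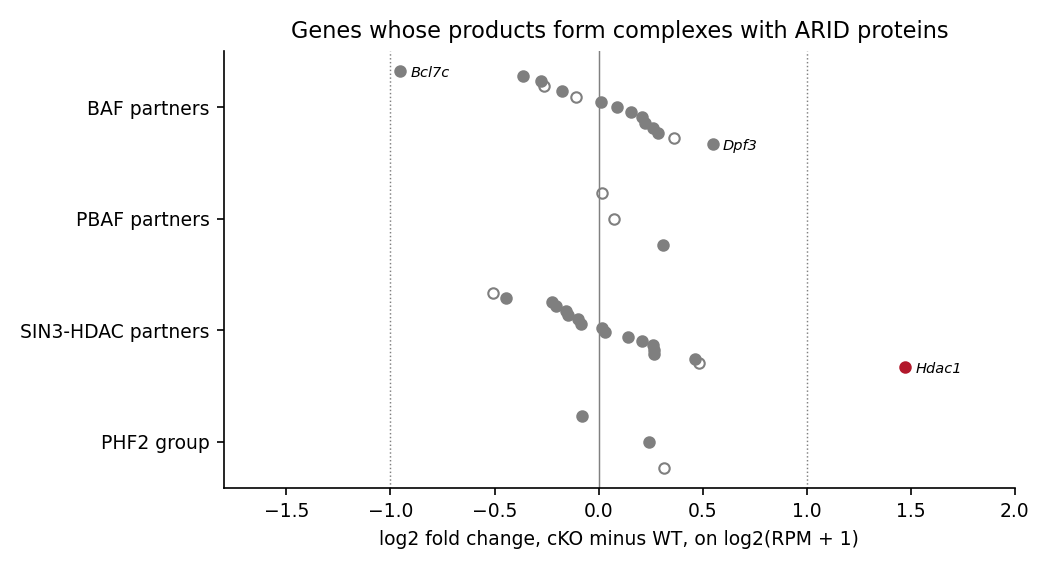
Log2 fold change (cKO minus WT, on log2(RPM + 1)) of the 39 tested partner genes in 4 lists, with dotted lines at 2-fold, filled points for genes the table names and open points for coordinate matches. Hdac1, in red, lies at 1.47, and the other 38 genes lie between -0.95 and 0.55.

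For PHF2, the demethylase that ARID5B recruits, the row named Phf2 had a low level. That row begins 7557 bases from the only start that GENCODE lists for the gene, so it may not count the annotated transcript alone. Phf2 was read at 3.16, 2.24 and 2.15 RPM in WT and at 3.17, 2.55, 3.48 and 3.38 RPM in cKO. The groups overlapped, and the log2 fold change was 0.24 (SE 0.27, 95% interval -0.35 to 0.84, limma adjusted p = 0.669). Its relatives Kdm7a, a coordinate match, and Phf8 were higher in level, at 55.6 ± 6.83 and 34.9 ± 8.42 RPM in cKO and 44.6 ± 7.15 and 36.8 ± 8.16 RPM in WT, and 0 of the 3 passed the threshold.

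The transcripts around Arid5b were examined for a difference shared by the region. Within 1 Mb on either side there were 26 transcripts, 11 of them tested, and the log2 fold changes of the 11 ran from -1.62 to 0.59 with a median of 0.21. The nearest tested neighbours were the noncoding Gm47078, 34.2 kb away on the promoter side (0.26, SE 0.41, limma adjusted p = 0.772), and Rtkn2, 45.7 kb beyond the other end (0.21, SE 0.31, adjusted p = 0.760). Of the 11, 0 were higher (3.76% over all tested transcripts) and 1 was lower (1.95%), Gm33035 at 741 kb, with 34.8, 27.2 and 18.8 RPM in WT and 4.89 to 12.6 RPM in the 4 cKO oocytes (log2 fold change -1.62, SE 0.35, adjusted p = 0.0218). The unnamed transcripts next to it, at 716 and 722 kb, had log2 fold changes of -0.89 and -0.69 (adjusted p = 0.167 and 0.210) at levels of at most 3.18 RPM.

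**Figure D5:**
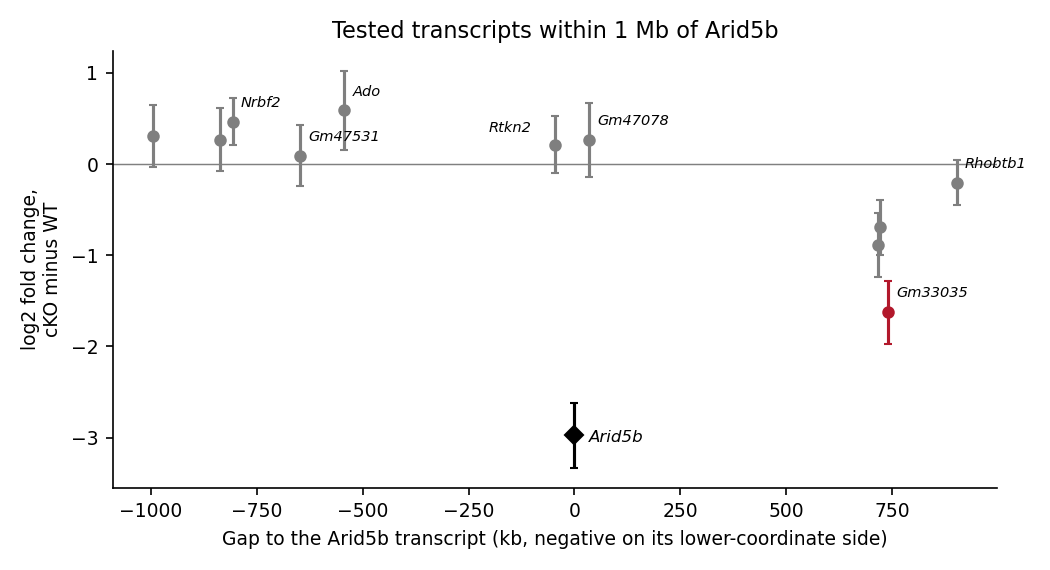
Log2 fold change (cKO minus WT) with bars of 1 SE for Arid5b (black diamond) and the 11 tested transcripts within 1 Mb, against the gap in kb between each transcript and Arid5b, negative on the side of lower coordinates. Gm33035, in red, lies at -1.62, and the transcripts nearest to Arid5b lie at 0.21 and 0.26.

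The genes whose level across the 7 oocytes was most like that of Arid5b were sought among 6787 named transcripts with a mean of at least 8 RPM. Likeness was the Pearson correlation of log2(RPM + 1), which mostly reflects the difference between the same 2 groups and is given as a description. The 5 highest were Mrap, Wdr31, Adm2, Usp29 and Gm26618, with r of 0.992, 0.989, 0.986, 0.985 and 0.985. Mrap, an accessory protein of the melanocortin receptors, was at 76.8 ± 3.53 RPM in WT and 48.0 ± 6.82 RPM in cKO. Wdr31 fell from 101 ± 16 RPM to 21.2 ± 12.9 RPM (log2 fold change -2.37), and Usp29, a deubiquitinase gene imprinted in mouse, fell from 27.6 ± 2.59 to 11.1 ± 2.17 RPM (-1.26). Adm2, a peptide hormone gene, and Gm26618 differed by -0.75 and -0.89 on the log2 scale, short of the threshold. In all 5, which were picked for this likeness, cKO 3 was the highest and cKO 4 the lowest of the cKO oocytes, as in Arid5b.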

How the data were processed

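RNA was measured in single GV oocytes of females aged 21 days, with cDNA amplified with the SMARTer Ultra Low kit. The authors trimmed the reads, mapped them with Hisat to GRCm38, removed hits of low mapping quality and quantified oocyte transcripts with merged isoforms in SeqMonk. Per transcript and library the authors deposited log2 RPM (reads per 1000000 mapped reads), in which 0.9 read stands for 0 reads. Back-transformed values were whole reads in 100% of cases (tolerance 0.01 read, wider in proportion at high counts), with 8582493 to 12972366 reads per library, so counting error at low levels follows these totals. No column was left out, and each of the 7 libraries counted as a replicate (4 Setd1b cKO, 3 Setd1b WT). No pair of libraries agreed within sampling noise (chi-square per degree of freedom at least 11.5).

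Testing covered the 18179 transcripts that reached 1 RPM in 3 or more libraries, on log2(RPM + 1) by lmFit and eBayes with an intensity trend (limma 3.58.1, R 4.3.3), with genotype as the only term. Fold changes on this scale understate the change of low transcripts. The study used a model for counts, whereas the file holds log2 RPM, so limma was the main test and voom on recovered reads an alternative. Calls needed a Benjamini-Hochberg adjusted p under 0.05 over all tested transcripts and a change over 2-fold. Of 23939 rows with a named feature, 7182 carried a gene of the opposite strand. A coordinate match needed the same strand and an overlap of at least 0.5 of the union with a GENCODE M21 gene. Summed markers were compared with exact permutation tests, and the scripts were tested on simulated data. Promoter windows came from RefSeq tables (Python 3.11.15).

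The members, gene lists and rules were chosen with earlier results of these data known. Named genes were all members and ARID-domain relatives, and of each partner list every called gene and the 2 with the highest mean RPM. Actl6a, Bcl7c, Dpf3, Hdac2, Sin3a and Phf2 were added for their role or after their values were seen. Alternatives covered the pseudocount, filter, scaling, fit, replicate block and each library left out.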

Additional observations from a re-analysis of the deposited data

Results flagged for a closer look

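Of 16 values examined for a library far from the rest of its group of 4 cKO oocytes, 3 exceeded Dixon's 95% limit for the gap to the nearest library as a share of the group's range, and chance alone gives such a gap in about 1 of 20 groups. Arid1a in cKO 1 was 41.2 RPM against 51.7 to 53.4 RPM in the other cKO oocytes (gap share 0.859). Arid2 in cKO 4 was 26.7 RPM against 50.3 to 53.7 RPM (gap share 0.873). Hdac1 in cKO 4 was 55.8 RPM against 60.6 to 60.9 RPM (gap share 0.942), a difference much smaller than that between the groups. In each case the distant oocyte was the lowest, and cKO 4 was also the library with the fewest reads, 8582493.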

How the results depend on the processing

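The Arid5b difference, whose direction its selection fixes, ranged over 20 alternatives from -3.25 (without cKO 3) to -2.72 (with the replicate block). Hdac1 stayed past the threshold in all 20 (1.32 to 1.55, adjusted p 0.00064 to 0.0246). Arid1a passed the threshold after centring on the median transcript, which brought the ARID genes lower in cKO to 2 with the selected Arid5b. The number of partner genes lower in cKO was 1, Bcl7c, after centring and with the replicate block, and 0 to 1 when single libraries were left out (1 without cKO 4). Counts over all transcripts moved most. Against 683 higher transcripts there were 315 with a pseudocount of 5 RPM, 396 with no filter, 428 after quantile normalisation, 1197 with library quality weights, 443 with voom and 171 to 850 when single libraries were left out. Against 355 lower transcripts there were 554 with quality weights and 109 to 437 when single libraries were left out, lowest without WT 2 in both directions. The cause was not tested, except that fewer libraries entered the fit. Replicate numbers did not pair the oocytes (same-number correlations of deviations 0.192, 0.295 and -0.129). With the replicate block, in which cKO 4 has no partner, 924 transcripts were higher and 479 lower, Arid5b was at -2.72 and Arid1a at -0.97, and no ARID gene changed its call.

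Signs reversed in genes with differences near 0. Arid4a was -0.15 after centring, -0.037 after quantile normalisation and -0.15 to -0.02 when WT 3, cKO 1, cKO 2 or cKO 3 was left out. Arid5a was 0.27 with the replicate block and without cKO 4, and ran from -0.58 (without WT 3) to 0.45 (without WT 1) over single libraries left out. Kdm5a was 0.0032 with a pseudocount of 5 RPM, 0.13 with quality weights, 0.34 with the replicate block and without cKO 4, and 0.02 without cKO 1, with a low of -0.61 without cKO 2. Counted as markers at or above 1 RPM in place of summed RPM, the oocyte list differed by 0 between groups, since all 11 markers passed in every library. At 3 oocytes against 4, the 95% intervals of Arid1b, Arid3a, Arid3b, Arid4b and Arid5a reach 2-fold, so differences of that size could not be told from 0 for them. Levels under the RPM of 3 reads, 0.231 to 0.350 by library, cannot be told from 0, which holds for Arid3c in WT 1 and WT 3 (0 reads each).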
